A study of Mus musculus with 8 samples.

Results

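The aggrecanase-type Adamts genes encode secreted zinc metalloproteinases that cut the large cartilage proteoglycans aggrecan and versican. The members Adamts1, Adamts4, Adamts5, Adamts8, Adamts9, Adamts15 and Adamts20 were taken by gene symbol, and all 7 were found among the 50462 gene identifiers of the table. RNA was sequenced from medial knee cartilage caps of male wild-type C57Bl/6J mice, with 1 library per mouse. The 4 naive mice were untreated and were sampled at day 0, at 11 weeks of age. The 4 DMM mice had the ligament that holds the medial meniscus to the tibia cut in the left knee (destabilisation of the medial meniscus, a model of post-traumatic osteoarthritis) and were sampled at day 42, at 17 weeks of age. With no sham-operated mice among them, effects of the surgery cannot be told apart from those of being 6 weeks older.

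Aggrecan gives cartilage its resistance to compression, and its loss is an early feature of osteoarthritis. ADAMTS4 and ADAMTS5 are the best known aggrecanases, and ADAMTS5 is regarded as the main one in mouse cartilage. ADAMTS1, ADAMTS9 and ADAMTS20 are known for cutting versican during development, while ADAMTS8 and ADAMTS15 are close relatives of the aggrecanases. The enzymes are made as inactive precursors, lose their propeptide to convertases such as furin, are held back by TIMP3 and are taken up from the matrix through LRP1.

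The members share a catalytic site in which 3 histidines hold the zinc ion. Its codons are shown because they are what makes these genes proteases and because they set the members apart in 2 ways. They were found by searching the longest protein-coding transcript of each gene (GENCODE vM21, build GRCm38) for the pattern His-Glu, any 2 residues, His, any 5 residues, His-Asp, which was chosen after a stricter pattern matched Adamts5 alone. Each member held exactly 1 match. The 36 bases are written 5′ to 3′, with the 3 histidine codons in capitals.
Adamts1: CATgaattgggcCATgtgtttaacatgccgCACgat
Adamts4: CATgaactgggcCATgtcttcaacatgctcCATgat
Adamts5: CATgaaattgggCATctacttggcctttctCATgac
Adamts8: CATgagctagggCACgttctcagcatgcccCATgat
Adamts9: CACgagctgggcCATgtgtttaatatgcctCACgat
Adamts15: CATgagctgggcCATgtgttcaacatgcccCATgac
Adamts20: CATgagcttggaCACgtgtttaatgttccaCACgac

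In all 7 genes an intron split these codons between 2 exons. In Adamts9 and Adamts20 the split came after base 17 of the 36, and in Adamts1, Adamts4, Adamts5, Adamts8 and Adamts15 it came after base 10. Adamts5 was the most distant in bases, sharing between 20 (with Adamts9) and 23 (with Adamts8) of the 36 bases with another member. The closest pair was Adamts4 and Adamts15, with 32 identical bases, followed by Adamts1 and Adamts9 with 31.

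The genes lie on chromosomes 1, 6, 9, 15 and 16 (build GRCm38). Adamts1 (chr16:85793827-85803113) and Adamts5 (chr16:85856173-85901828) are neighbours on the minus strand, separated by 53059 bases that hold 1 annotated gene and no coding gene. Adamts15 (chr9:30899155-30922452, minus strand) and Adamts8 (chr9:30942562-30963838, plus strand) lie head to head, with 20109 bases and no annotated gene between them. Adamts4 is at chr1:171250421-171260637 on the plus strand, Adamts9 at chr6:92772699-92943492 and Adamts20 at chr15:94270163-94465418, both on the minus strand.

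To ask how these proteases responded to joint destabilisation, DMM was compared with naive cartilage by DESeq2 over the whole table. Genes that changed by at least 1.5-fold with an adjusted p (Benjamini-Hochberg) of at most 0.05 were called. Adamts1, Adamts4, Adamts9 and Adamts15 rose in DMM cartilage, by 1.57-fold to 1.95-fold. Adamts5 was not called and had the lower mean in DMM. Adamts8 was not called at a level of few counts, and Adamts20 was at the detection floor in every library. Of the 6 members tested, 4 were called higher and 0 lower. Of the 18422 genes tested, 7.47% were called higher (13.2% in either direction), and 11.6% had all DMM libraries above all naive libraries. Over all genes 1376 were called higher and 1050 lower, and scaling by the total count instead gave 2035 and 486, with the same number of members called. In bulk cartilage, a change in the share of a cell type cannot be told apart from a change in RNA per cell.

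**Figure D1:**
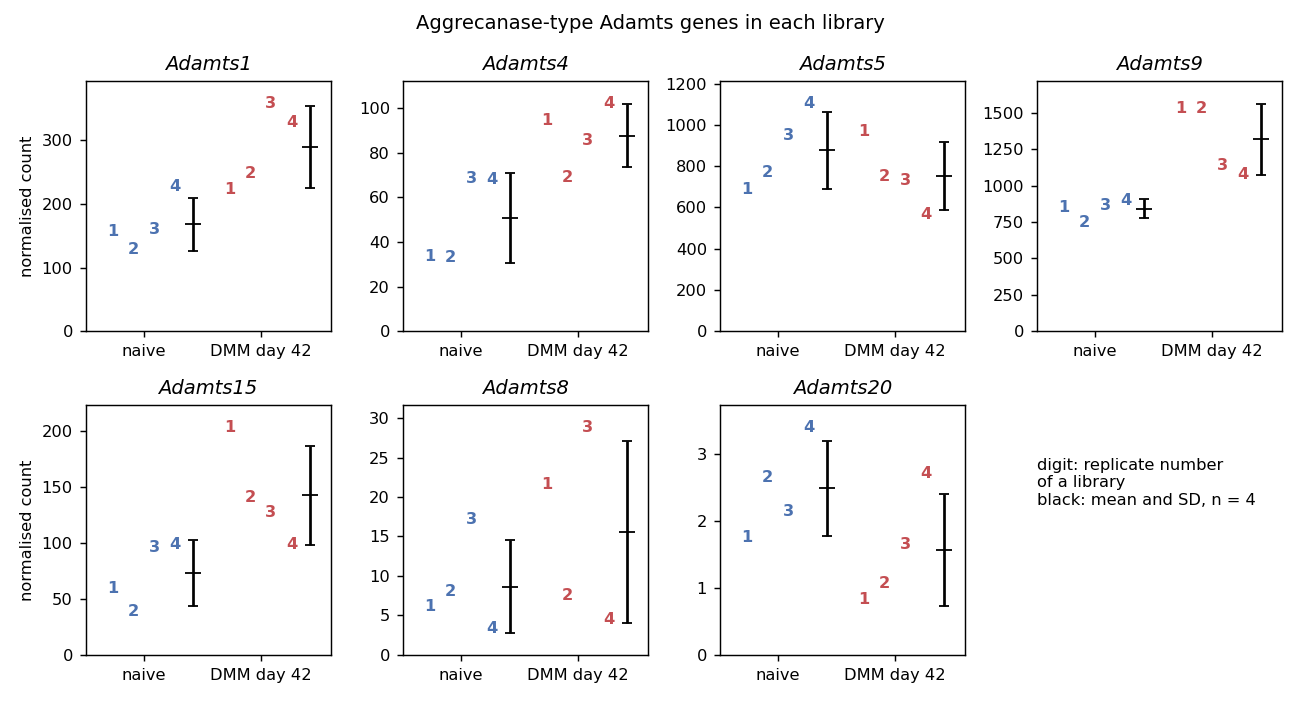
Normalised counts (vertical axes, linear and starting at 0) of each member in the 4 naive and 4 DMM libraries, with each digit giving the replicate number of a library and black marks the mean and SD. Adamts9 and Adamts4 had no DMM library below a naive library, as was so for 11.6% of the 18422 genes tested. The DMM libraries of Adamts5 lay within or below the naive range.

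Adamts5 and Adamts9 had the highest counts of the members in naive cartilage. Adamts5 had normalised counts (counts divided by the size factor of the library) of 687.7, 767.6, 948.2 and 1103 in naive replicates 1 to 4. In DMM replicates 1 to 4 it had 970.3, 748.2, 728.5 and 564.1. The groups overlapped, with the highest value in naive replicate 4 and the lowest in DMM replicate 4. The means were 876.7 ± 186.2 (SD, n = 4) in naive and 752.8 ± 166.9 in DMM, a log2 fold change of -0.22 with a standard error of 0.19 (DESeq2 adjusted p = 0.477). The 95% interval ran from -0.60 to 0.16, so it held 0 and, at its lower end, a decrease of 1.5-fold, but not an increase of 1.5-fold.

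Adamts4, the other main aggrecanase, had 33.42, 33.26, 68.50 and 68.03 normalised counts in naive replicates 1 to 4. It had 94.54, 68.80, 85.61 and 102.0 in DMM replicates 1 to 4. The groups did not overlap, but DMM replicate 2 stood at almost the same value as naive replicates 3 and 4. Adamts4 rose by 1.73-fold (log2 0.79, standard error 0.29, DESeq2 adjusted p = 0.0350). That call was lost under edgeR (adjusted p = 0.0698) and with DESeq2's independent filtering and Cook filter both switched off (adjusted p = 0.0656).

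Adamts1 had 157.4, 127.7, 160.5 and 226.8 normalised counts in naive replicates 1 to 4 and 223.1, 247.2, 357.3 and 328.5 in DMM replicates 1 to 4. Only naive replicate 4 reached the DMM range, passing DMM replicate 1. The rise was 1.72-fold (log2 0.78, standard error 0.22, DESeq2 adjusted p = 0.00312), and it was called in 8 of 8 fits that each left out 1 library.

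Adamts9, which encodes a versican-cutting protease with a long tail of thrombospondin repeats, had 849.5, 747.7, 864.8 and 899.1 normalised counts in naive replicates 1 to 4. In DMM replicates 1 to 4 it had 1527, 1530, 1141 and 1079. All DMM libraries were above all naive libraries, with DMM replicates 1 and 2 the highest. Adamts9 rose by 1.57-fold (log2 0.65, standard error 0.15, DESeq2 adjusted p = 0.000192). Without DMM replicate 1 or DMM replicate 2 the log2 fold change was 0.57 in either fit, just under the 1.5-fold threshold, at adjusted p-values of 0.00344 and 0.00315.

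Adamts15 had 58.92, 38.58, 96.32 and 98.64 normalised counts in naive replicates 1 to 4 and 203.2, 140.8, 127.6 and 98.38 in DMM replicates 1 to 4. DMM replicate 1 was the highest and DMM replicate 4 was level with naive replicates 3 and 4. Adamts15 rose by 1.95-fold (log2 0.96, standard error 0.31, DESeq2 adjusted p = 0.0136). Under edgeR its adjusted p was 0.0533.

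Some of these calls depended on single libraries. Without DMM replicate 1, Adamts1 was the 1 member still called. Without naive replicate 1, or without naive replicate 2, 2 members were called, Adamts4 and Adamts15 being lost. Adamts4 was also lost without DMM replicate 3 or DMM replicate 4, and was called in 3 of 8 such fits, against 5 for Adamts15 and 6 for Adamts9. Tested against a 1.5-fold change instead of no change, 0 members were called by DESeq2, with unadjusted p-values of 0.227 or more, so these data do not place any member above 1.5-fold.

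Adamts8 had 6.156, 7.982, 17.12 and 3.402 normalised counts in naive replicates 1 to 4 and 21.56, 7.525, 28.81 and 4.513 in DMM replicates 1 to 4. Both groups held libraries below 10 counts, and they overlapped. The log2 fold change was 0.86 with a standard error of 0.69 (DESeq2 adjusted p = 0.424) and a 95% interval from -0.49 to 2.21, so neither a rise nor a fall was shown. Adamts20 had between 1 and 3 estimated counts in every library of both groups, at or under the floor of 3 counts, and no fold change is given.

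**Figure D2:**
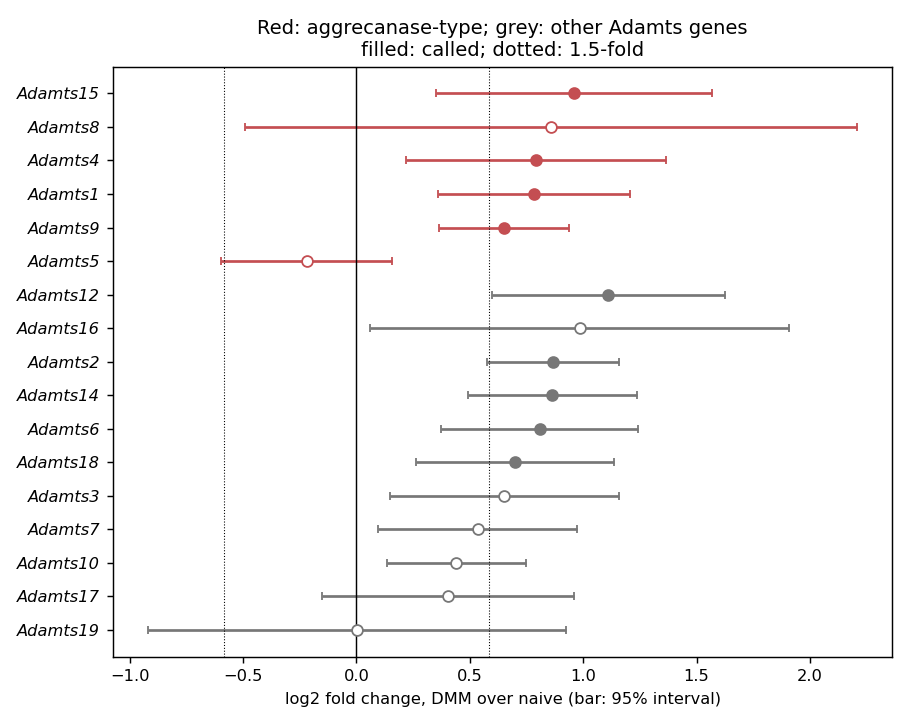
Log2 fold change of DMM over naive (horizontal axis) with its 95% interval for the 6 tested members (red) and the 11 other tested Adamts genes (grey), filled where called, with dotted lines at 1.5-fold. Adamts5 at -0.22 was the lowest of the 17 genes shown.

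Because a count grows with transcript length, members were compared with each other as normalised counts per kilobase of the longest protein-coding transcript. On this scale the naive order was Adamts9 (104.8 ± 8.13, SD, n = 4), Adamts5 (81.2 ± 17.3), Adamts1 (34.4 ± 8.56), Adamts15 (12.3 ± 4.95), Adamts4 (11.6 ± 4.59), Adamts8 (2.39 ± 1.64) and Adamts20 (0.362 ± 0.103). The libraries of Adamts9 and Adamts5 overlapped in naive, as did those of Adamts15 and Adamts4. In DMM the order of the means was the same, with Adamts9 at 164.5 ± 30.3, Adamts5 at 69.8 ± 15.5 and Adamts1 at 59.2 ± 13.1. By transcript length the DMM libraries of Adamts9 stood clear of those of Adamts5, while Adamts5 and Adamts1 overlapped. With the merged length of all exons in place of the transcript, Adamts5 came before Adamts9 in naive, and Adamts4 before Adamts15 in both groups. By that length the DMM means of Adamts9 and Adamts5 were closer, at 87.7 and 69.8, and overlap of their libraries was not examined.

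**Figure D3:**
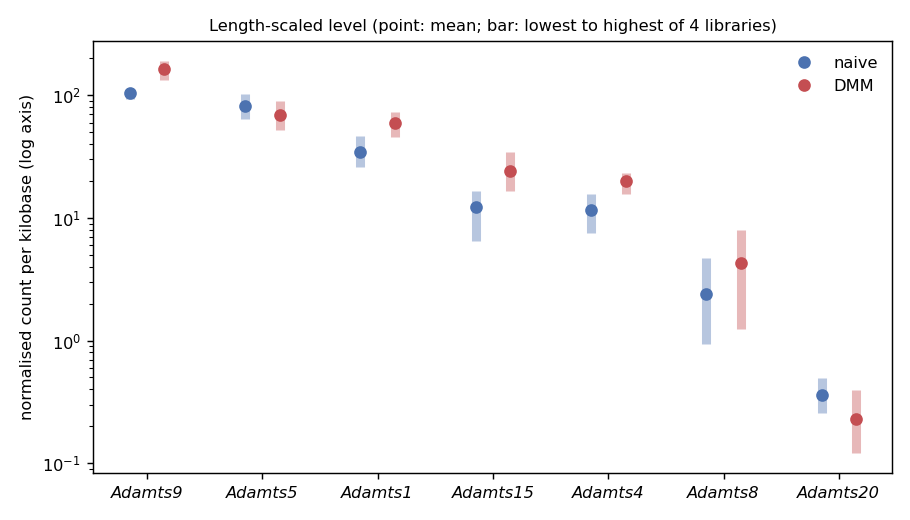
Normalised counts per kilobase (vertical log axis) of the 7 members in naive (blue) and DMM (red) cartilage, with points at the mean and bars from the lowest to the highest of 4 libraries. By this transcript length Adamts9 had the highest mean in both groups, though its naive bar overlapped that of Adamts5. The Adamts5 and Adamts1 bars overlapped in DMM but not in naive.

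Of the summed length-scaled level of the 7 members, Adamts5 made up 28.8% to 34.7% in the naive libraries and 17.7% to 23.2% in the DMM libraries, without overlap. Adamts9 made up 38.1% to 47.9% in naive and 42.8% to 54.1% in DMM, and Adamts4 made up 3.44% to 5.88% and 4.45% to 7.86%. These shares add up to a whole, so a larger share of 1 member lowers the others. They also rest on the length of the longest transcript. By the merged length of all exons, Adamts5 had the higher naive mean (81.2 per kilobase against 55.8 for Adamts9), and shares were not computed for that length.

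To compare members within a library, where size factors cancel, the log2 ratio of their estimated counts was tested for 4 pairs. The Adamts4 to Adamts5 ratio was -4.36, -4.48, -3.78 and -4.01 in naive replicates 1 to 4 and -3.35, -3.43, -3.08 and -2.47 in DMM replicates 1 to 4. All DMM libraries were above all naive libraries, and the mean rise was 1.07 on the log2 scale (two-sided exact permutation test, p = 0.0286, adjusted over the 4 pairs p = 0.0571). The Adamts1 to Adamts5 ratio, of the chromosome 16 neighbours, was -2.12, -2.58, -2.56 and -2.28 in naive and -2.12, -1.60, -1.03 and -0.78 in DMM replicates 1 to 4. The groups were separated by DMM replicate 1 standing just above naive replicate 1, with a mean rise of 1.01 (two-sided exact permutation test, p = 0.0286, adjusted p = 0.0571). The smallest p that 70 assignments allow is 0.0286, and neither ratio passed 0.05 after adjustment. With both at that smallest p, adjustment over the 4 pairs could not give less than 0.0571 unless another pair also reached it. Both ratios share Adamts5.

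**Figure D4:**
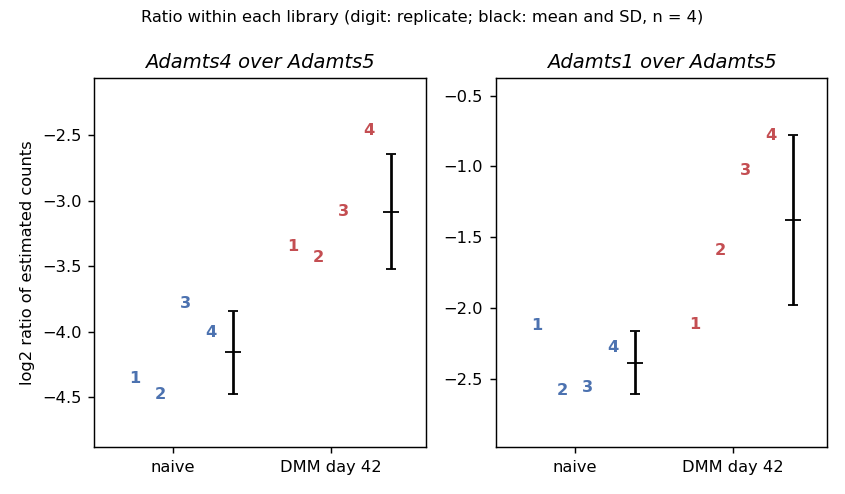
Log2 ratio of estimated counts (vertical axes) of Adamts4 over Adamts5 and of Adamts1 over Adamts5 in each library, with digits giving replicate numbers and black marks the mean and SD. In both panels the 4 DMM libraries were above the 4 naive libraries, with DMM replicate 4 the highest.

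The Adamts8 to Adamts15 ratio, of the chromosome 9 neighbours, was -3.10 ± 1.12 (SD, n = 4) in naive and -3.47 ± 1.01 in DMM (two-sided exact permutation test, p = 0.686, adjusted p = 0.686). The Adamts20 to Adamts9 ratio was -8.14 ± 0.39 in naive and -9.42 ± 0.82 in DMM (two-sided exact permutation test, p = 0.0571, adjusted p = 0.0762), and it rests on at most 3 counts of Adamts20.

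The genes whose level over the 8 libraries was most like that of a member were listed as a description, from 12152 genes. They include the group difference, depth and scaling that all genes share. For Adamts1 they were Slc7a2, a transporter of cationic amino acids (Pearson r = 0.990), and Ndrg3 (0.976). For Adamts4 they were Mcc (0.992) and Plk2, a polo-like kinase (0.987), and for Adamts9 they were Prr33 (0.988) and Kank3 (0.987). For Adamts15 they were Plekhh3 (0.992) and Platr15 (0.991). For Adamts5 they were Smug1, a DNA repair glycosylase (0.959), and Gbp5, an interferon-induced GTPase (0.947). Picking the largest of 12152 values of r over 8 libraries can by itself give high values, and no link to a member was tested.

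Promoter sequence is shown for the called members with an entry in the RefSeq table (GRCm38.p6), which were Adamts1 and Adamts9, as the 250 bases before the start. Motifs were searched on both strands, and matches other than E-boxes are in capitals. The Adamts1 window, chr16:85803114-85803363 on the minus strand, held TATAAA 32 bases before the start and 1 match to the NF-kB pattern (GGG, any 5 bases, then CC).
Adamts1: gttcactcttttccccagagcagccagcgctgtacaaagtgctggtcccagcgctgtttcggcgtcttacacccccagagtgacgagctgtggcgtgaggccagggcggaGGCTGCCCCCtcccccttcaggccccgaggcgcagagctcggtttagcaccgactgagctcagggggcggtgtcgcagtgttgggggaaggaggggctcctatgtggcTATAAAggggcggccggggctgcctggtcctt
The Adamts9 window, chr6:92943535-92943784 on the minus strand, held 1 match to the NF-kB pattern and 1 E-box (CANNTG).
Adamts9: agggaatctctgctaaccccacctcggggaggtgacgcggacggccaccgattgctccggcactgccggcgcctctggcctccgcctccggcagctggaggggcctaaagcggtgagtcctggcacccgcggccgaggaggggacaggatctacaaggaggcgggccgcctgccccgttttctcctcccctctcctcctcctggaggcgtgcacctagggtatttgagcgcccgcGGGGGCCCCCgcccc

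Of 32817 promoter windows of this length, 12.4% held TATAAA, 45.8% the NF-kB pattern and 66.2% an E-box. The RUNX words (TGTGGT and TGCGGT, in 18.6% of windows) and the AP-1 pattern (TGANTCA, in 6.8%) were in neither printed window. The printed windows were 65.6% and 71.2% G or C, against a median of 52.4% over all windows.

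Of the 12 other secreted Adamts genes 11 were tested, and 5 were called higher and 0 lower. Over all genes tested 7.47% were called higher, which is the share to set beside each list. The median log2 fold change of the 11 was 0.70 beside -0.01 over all genes tested. Adamts2 and Adamts14, which encode procollagen N-propeptidases, each rose by 1.82-fold (DESeq2 adjusted p = 4.71e-07 and 0.000134). Adamts12, whose product cuts the cartilage protein COMP, rose by 2.16-fold (DESeq2 adjusted p = 0.000385).

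Of the proteoglycan substrates, Acan and Vcan rose, while Ncan was not called and Bcan was given no adjusted p. Acan, which encodes aggrecan, had 5203 to 8260 normalised counts in the naive and 11600 to 16870 in the DMM libraries, a rise of 2.13-fold (DESeq2 adjusted p = 8.04e-09). Vcan, which encodes versican, had 795.6 to 1628 in naive and 1919 to 3649 in DMM libraries, a rise of 2.22-fold (DESeq2 adjusted p = 2.87e-05). Neither gene overlapped between groups, where 11.6% of all genes tested were separated in this direction. Has1, a hyaluronan synthase, rose by 2.28-fold (DESeq2 adjusted p = 0.0109), but naive replicate 4 (107.7) was above DMM replicate 4 (85.74). The link protein gene Hapln1 was not called (1.73-fold, DESeq2 adjusted p = 0.133). Of the 10 tested genes of the list 3 were called higher and 0 lower, with a median log2 fold change of 0.73.

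Of the inhibitors, clearance receptors and partners, 4 of 11 tested genes were called higher and 0 lower, with a median of 0.50. Timp1 rose by 2.32-fold (DESeq2 adjusted p = 1.25e-05) and Timp2 by 2.19-fold (adjusted p = 1.92e-06), both broad metalloproteinase inhibitors. Timp3, the inhibitor known for its hold on aggrecanases, was not called (4683 ± 901.8 in naive and 6281 ± 1276 in DMM, SD, n = 4, 1.34-fold, DESeq2 adjusted p = 0.0763), and DMM replicate 1 was its lowest DMM library at 4392. Fn1, which encodes fibronectin, rose by 2.05-fold (DESeq2 adjusted p = 0.000591). The clearance receptor gene Lrp1 rose by 1.59-fold (DESeq2 adjusted p = 0.00141), but naive replicate 4 (18340) was above DMM replicate 4 (17100). Sdc4, a cell surface proteoglycan linked to ADAMTS5 activity, was under the fold threshold (1.38-fold, DESeq2 adjusted p = 0.00503).

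Among genes for activation and secretion, 1 of 6 was called higher, beside 7.47% of all genes tested. The convertase gene Pcsk5 rose by 2.37-fold, from 334.9 ± 64.0 to 794.4 ± 34.2 normalised counts (SD, n = 4, DESeq2 adjusted p = 1.42e-14). Furin (1.25-fold, DESeq2 adjusted p = 0.0314) and Pofut2, which adds fucose to thrombospondin repeats (1.46-fold, adjusted p = 0.00119), were under the fold threshold. Pcsk6 (log2 0.48, DESeq2 adjusted p = 0.0806) and B3glct (log2 0.27, adjusted p = 0.225) did not pass the p threshold.

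Of 10 tested genes for known inducers and their receptors, with a list median of 0.04, 1 was called higher, beside 7.47% of all genes tested. It was Osmr, the oncostatin M receptor gene, which rose by 1.95-fold (DESeq2 adjusted p = 2.20e-06). The ligand genes Il1b, Il1a, Tnf and Osm were not called (DESeq2 adjusted p = 0.219, 0.0563, 0.132 and 0.234). Their log2 fold changes were all negative, at -0.46, -0.90, -0.48 and -0.47. Il6 averaged 3.18 normalised counts in naive against 2.77 in DMM cartilage.

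**Figure D5:**
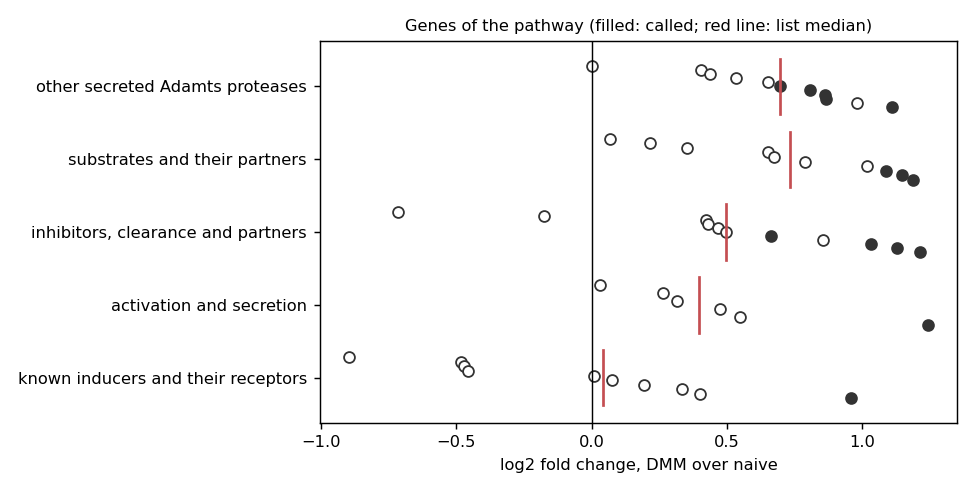
Log2 fold change of DMM over naive (horizontal axis) of each tested gene on the 5 pathway lists, filled where called, with red lines at the list medians. The medians ran from 0.04 for the inducers to 0.73 for the substrates.

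Markers of several cell types moved with the groups. Chondrocyte markers summed to 2630 to 3860 CPM (counts scaled to the total of the library) in the naive libraries. In the DMM libraries they summed to 6060 to 12200 CPM (4 of 10 called higher). All 10 had 10 or more counts in every library. Col2a1 alone held 1060 to 2200 and 2990 to 7460 CPM. Of the markers not called, Matn3 (-0.29) and Col9a1 (-0.36) had negative log2 fold changes. Hapln1, Cnmd, Chad and Snorc had positive ones. Fibroblast markers summed to 679 to 2000 and 3640 to 7630 CPM (4 of 6 called higher). Col3a1 alone held 547 to 1780 and 3420 to 7240 CPM of this sum. Pi16 and Clec3b were not called (log2 -0.35 and 0.98). Smooth muscle and pericyte markers summed to 158 to 312 and 427 to 574 CPM (5 of 5 called higher). Osteoblast and osteocyte markers summed to 1030 to 1770 and 2700 to 5460 CPM (7 of 8 called higher). Neutrophil markers summed to 8130 to 11400 CPM in naive and 3800 to 8020 in DMM (7 of 7 called lower), and erythroid markers to 5870 to 9520 and 3230 to 6850 (4 of 5 called lower). Endothelial markers summed to 428 to 485 and 477 to 539 (3 of 8 higher and 1 lower). Superficial zone and synovial lining markers summed to 1860 to 6820 and 1970 to 3680 (2 of 5 higher, Thy1 and Pdpn). Of that list, Prg4 alone held 1810 to 6720 and 1880 to 3580 CPM. Prg4, Clic5 and Cd55 were not called, with log2 fold changes of -0.54, -0.25 and 0.24. Osteoclast markers summed to 712 to 1100 and 887 to 1520 (1 of 5 higher). Macrophage markers (378 to 401 and 397 to 462), skeletal muscle markers (1.46 to 25.6 and 2.28 to 62.1) and adipocyte markers (84.0 to 177 and 115 to 413) held 0 called genes by DESeq2, with 4 of their 13 genes at an unadjusted p under 0.05 and 0 called by edgeR. Their part in the changes of the members was not tested.

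Reads of a member may also come from genes on the opposite strand, since the use of strand in counting was not stated. Of the 31-base words in Adamts9 exons, 11.54% also occurred in another gene, chiefly A730049H05Rik and Gm15737, which had means of 42.6 and 40.0 normalised counts in DMM against 1319 for Adamts9. A730049H05Rik was itself called higher in DMM (log2 0.94, DESeq2 adjusted p = 0.0250). The share was 9.41% for Adamts8, chiefly with Gm29724. For Adamts1, Adamts5, Adamts15 and Adamts20 it was 0.13% or less.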

How the data were processed

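RNA-seq libraries of 4 naive and 4 DMM mice were analysed. The deposited table holds estimated counts per gene, which the authors made with Trimmomatic, Kallisto and tximport. The methods name mouse build GRCm38, whereas the submitters' processing notes list GRCh38, and the labels and methods name different library kits, so build and kit are uncertain. Counts were rounded to whole numbers. Totals ran from 12479443 to 16548002 counts per library, and naive replicate 2 had the fewest genes with 10 or more counts (16770, others 18245 to 19271). Symbols and coordinates came from GENCODE vM21 by identifier (48855 of 50462 matched).

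DESeq2 1.42.0 in R 4.3.3 (Wald test, median-of-ratios factors, default filters) was fitted to all 8 libraries without covariates. The study also used the DESeq2 Wald test. Ratios of members (pseudocount 0.5) were compared by two-sided exact permutation tests in SciPy 1.17.1. Alternatives were edgeR 4.0.16, limma-voom 3.58.1, other size factors, filters and fold thresholds, the replicate number as a block, and leaving out each library. The first run tuned DESeq2's low-count filter to 0.05 by mistake; the planned default was restored after its results had been seen, no member's call differed, and the tuned filter was kept as an alternative added after seeing the data. On data simulated for DMM over naive, DESeq2 called 171 of 200 genes changed by 2-fold and 28 unchanged genes, of 20958 tested. The changed genes were drawn only from genes with more counts than Adamts8, and the called members changed by less than 2-fold. The simulation therefore does not tell how often changes of the members would be called.

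The members and lists were chosen with earlier results of these data known. Text names all 7 members, up to 3 called genes per list with the smallest adjusted p, 10 fixed pathway genes, and the 2 genes most like each member with a mean of 20 or more. Ncan, Bcan, Thy1, Pdpn, Il1b, Il1a, Tnf, Osm, Il6 and 3 genes overlapping members were named beyond that rule, after their values were seen. So were Prg4, Clic5, Cd55, Col2a1, Matn3, Col9a1, Cnmd, Chad, Snorc, Col3a1, Pi16 and Clec3b. Replicates are separate mice. Protein sequences were not used here, and the overlap of Adamts4 with another gene is not reported here.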

Additional observations from a re-analysis of the deposited data

Results flagged for a closer look

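Of 80 groups of 4 values tested for a single distant library (Dixon's test), 2 held one, where chance gives about 4. Timp3 had 4392 normalised counts in DMM replicate 1, against 6749 to 7202 in the other DMM libraries. B3glct, which encodes a glucosyltransferase acting on thrombospondin repeats, had 141.3 normalised counts in naive replicate 3, against 163.3 to 167.1 in the other naive libraries.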

How the results depend on the processing

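The 4 calls among the members held under limma-voom, TMM factors, total count scaling, a mean of at least 10 counts, no fold threshold and the tuned filter. edgeR called 2 members and a 1.5-fold null called 0. Leaving out each library gave 1 to 4. None of the 6 members given a fold change reversed its direction in any fit. Over all genes, leaving out each library gave 1851 to 2847 calls beside 2426 (987 to 1655 higher beside 1376, 771 to 1248 lower beside 1050), no fold threshold gave 3974 calls (1966 lower), and the 1.5-fold null gave 88 (74 higher and 14 lower). Total count scaling, which moved the median log2 fold change from -0.01 to 0.14, gave 2035 higher and 486 lower calls. It raised the calls to 8 of the other Adamts genes (5 in the fit reported), 5 of the substrates (3), 7 of the inhibitors (4) and 3 of the activation genes (1). The 1.5-fold null called 0 other Adamts genes, substrates, inhibitors and inducers. No fold threshold called 3 activation genes and 3 inducers, and a mean of at least 10 counts called 2 inducers. Leaving out each library gave 5 to 7 other Adamts genes, 2 to 4 substrates, 3 to 6 inhibitors, 1 to 3 activation genes and 1 to 2 inducers. The log2 ratio differences then ran from 0.87 to 1.20 (Adamts4 to Adamts5), 0.81 to 1.25 (Adamts1 to Adamts5), -0.88 to -0.05 (Adamts8 to Adamts15) and -1.61 to -0.998 (Adamts20 to Adamts9). The causes of these shifts were not tested.

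Replicates were separate mice, so a shared number did not mark the same animal. Deviations of same-numbered libraries correlated at 0.047, 0.056, -0.11 and 0.116. Differently numbered libraries were not compared, so these values do not settle whether the numbers carry a pairing. With the replicate number as a block, 4 members and 2076 genes were called. The exact sign-flip permutation test over pairs gave p = 0.125 for the Adamts4 to Adamts5 ratio, the smallest it allows. Adamts20 had at most 3 counts in any library, which allows no fold change.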
